A study of Mus musculus with 4 samples.

Results

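Connexins are the proteins of gap junctions, and 5 of the 32285 genes counted in embryonic mouse hearts are described here, namely Gja1, Gja5, Gjc1, Gja4 and Gjb2, which were chosen by symbol. Single-cell RNA sequencing had been performed on hearts of C57BL/6J embryos at E10.5. The wild-type (Wt) group comprised 2 libraries, Wt1 and Wt2, and the mutant (Ho) group comprised Ho1 and Ho2, whose embryos were homozygous for the Cyp51 allele I383V. Cyp51 encodes an enzyme of cholesterol synthesis, and the missense allele was introduced into the germline with CRISPR/Cas9, which the labels give as the treatment of all 4 libraries, the wild-type ones included. The allele is carried by every cell of the embryo, so an effect cannot be assigned to 1 cell type. Neither the labels nor the methods of the study state how many embryos or litters a library holds, so p-values speak for these libraries only. For Ho against Wt they rest on the spread between libraries. Between cell types the library was a block, so they rest on how differences within a library vary among libraries. In both cases the test draws the spread of a gene in part from the other genes. Because the allele changes 1 amino acid, the level of Cyp51 mRNA does not check the labels, and it was 72.0 and 61.9 counts per 1000000 (CPM) in the Wt and 54.4 and 67.0 CPM in the Ho libraries. Captured mRNAs carry a unique molecular identifier (UMI) in this assay. The deposited counts summed to 109893733 and 117034633 UMIs in the Wt libraries and to 127018819 and 107377100 UMIs in the Ho libraries.

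Connexins assemble into channels that dock between neighbouring cells and let ions and small molecules pass, which couples heart muscle cells electrically. The composition of these channels sets how well they conduct, and regions of the heart use different connexins. Gja1 encodes Cx43, the main connexin of working ventricular muscle, and Gja5 encodes Cx40, found in fast-conducting muscle of the atria, the trabeculae and the later conduction system and also in arterial endothelium. Gjc1 encodes Cx45, a connexin of low conductance that is present early throughout the heart and is later associated with slowly conducting nodal tissue. Gja4 encodes Cx37, a connexin of endothelium and endocardium, and Gjb2 encodes Cx26, best known from epithelia.

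In the GENCODE M21 annotation of GRCm38, each of these genes has its whole coding sequence in 1 exon. Gja1 lies on chromosome 10 at chr10:56377330-56402513 on the plus strand, Gja5 at chr3:96904693-97077416 on the plus strand, Gjc1 at chr11:102799579-102819700 on the minus strand, Gja4 at chr4:127311421-127314039 on the minus strand and Gjb2 at chr14:57098600-57104702 on the minus strand. The span of Gja5 is overlapped by 4 genes of the opposite strand. The 250 bases before the RefSeq start sites (build GRCm38.p6) of Gja5 and Gja1 are shown because their mRNAs were high together in trabecular-marked cells and low together in canal-marked cells in the comparisons given further on. Capitals mark AAGTG, the core letters bound by NK2 factors such as Nkx2-5, read with CACTT on the other strand. The RefSeq start of Gja5 used here lies inside the longer GENCODE span. Both sequences are on the plus strand, Gja5 at chr3:97032152-97032401 and Gja1 at chr10:56377050-56377299.
Gja5: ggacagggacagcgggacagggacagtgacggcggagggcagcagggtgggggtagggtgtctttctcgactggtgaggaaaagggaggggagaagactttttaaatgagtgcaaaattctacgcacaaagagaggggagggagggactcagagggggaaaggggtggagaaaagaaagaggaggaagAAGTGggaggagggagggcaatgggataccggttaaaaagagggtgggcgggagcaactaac
Gja1: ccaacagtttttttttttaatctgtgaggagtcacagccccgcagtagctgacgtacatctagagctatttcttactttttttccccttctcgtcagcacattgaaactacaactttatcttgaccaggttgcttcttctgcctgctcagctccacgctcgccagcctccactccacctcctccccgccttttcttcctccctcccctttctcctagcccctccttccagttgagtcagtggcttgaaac
The window of Gja5 held AAGTG or CACTT at 1 place, 62 bases before the start, and that of Gja1 held neither. AGGTGT or ACACCT, core letters bound by T-box factors, was in neither window. Over all 32851 promoter windows of this length, 40.7% held the NK2 letters and 11.8% the T-box letters, so these matches are a description only. A promoter sequence was found for 4 of the 5 connexins, without Gjc1.

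After filters on depth, mitochondrial counts and doublets, 30111 cells were used, 9356 and 7400 from the Wt and 7042 and 6313 from the Ho libraries. Cells were assigned to 6 gates by marker UMIs, with Tnnt2, a troponin of heart muscle, at 10 or more UMIs per 10000 UMIs of the cell for muscle cells. Among these, Myl2 marked 4407 ventricular cells, Stard10 1636 atrial cells and Shox2 1533 sinus venosus cells, and below the Tnnt2 limit Cdh5 marked 5331 endocardial cells, Hapln1 4155 mesenchymal cells and Epcam 940 epithelial cells. The gates thus held 18002 cells, 59.8% of those used, and this share differed between libraries. Cells of no gate, without the Tnnt2-high muscle cells among them, numbered 5106, 1823, 708 and 1801 in Wt1, Wt2, Ho1 and Ho2. All cells of no gate held 32.1% of Gja1, 39.5% of Gjc1, 10.8% of Gja5 and 3.17% of Gja4 UMIs. The Cdh5 gate takes endocardium and vascular endothelium together. Each gate held its own marker list at its highest level, and in the ventricular gate the 5 ventricular markers, led by Myl3, summed to 14742 to 15559 CPM in the 4 libraries against 2973 to 3327 CPM in the atrial gate. Each list includes the gene that drew its gate, such as Myl2 for ventricular cells. Part of this outcome was therefore fixed by the gates. The mesenchymal gate also held 213 to 229 CPM of the 6 endocardial markers, led by Plvap, with each of the 6 present in every library.

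Some libraries stood apart before any connexin was considered. Ho1 contained 1 epithelial-gate cell, against 473, 193 and 273 in Wt1, Wt2 and Ho2, and was left out of the epithelial sums. Ho1 also held 29260 UMIs of the female transcript Xist and none of the Y-linked genes, whereas Wt1, Wt2 and Ho2 held 9369, 10281 and 9991 Y-linked UMIs, so that sex and library coincided in the Ho group. The 4 haemoglobin genes summed to 608 CPM in the sinus venosus gate of Ho1 against 2.03, 4.76 and 7.21 CPM in Wt1, Wt2 and Ho2, although red blood cells had been lysed. Wt1 was the shallowest library, with a median of 10694.5 UMIs per cell against 14308.5, 15704 and 15873, and its ventricular cells had a median of 10174 UMIs against 18326, 18420.5 and 19921. Of all 33454 barcodes, 134 occurred in more than 1 library.

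Gja1, the gene of Cx43, had its highest mean in ventricular cells, although not in every library. Its level there was 19.4, 40.2, 30.9 and 31.6 CPM in Wt1, Wt2, Ho1 and Ho2, and the mean was 30.5 CPM ± 8.53 (SD, n = 4). In atrial cells it was 7.11, 7.80, 7.84 and 7.93 CPM. Every ventricular library lay above every atrial one, and Wt1 was the lowest ventricular library. Gja1 was 4.23 times lower in atrial than in ventricular cells (log2 fold change -2.08, SE 0.22, adjusted p = 1.15e-07). Across all genes tested, 27.2% were called between these gates, so a call alone was common. Sinus venosus cells, the source of the later pacemaker, had 6.30, 7.24, 7.98 and 7.00 CPM of Gja1, a range that overlapped that of atrial cells (log2 fold change -0.27, SE 0.31, adjusted p = 0.536). Atrial and sinus venosus levels lay within the range of macrophages, marked by Tyrobp, at 14.8, 0 and 4.75 CPM in Wt1, Wt2 and Ho1. A fold against these 2 gates is therefore not exact. Means of the non-muscle gates lay between those of ventricular and atrial cells, but their ranges overlapped that of ventricular cells. Endocardial cells had 20.4, 14.3, 20.5 and 18.2 CPM, and mesenchymal cells had 21.2, 19.0, 21.1 and 20.7 CPM. These gates overlapped and did not pass the test against each other (log2 fold change 0.09, SE 0.17, adjusted p = 0.701), and both lay above every atrial library. Wt1 had more Gja1 in these gates than in ventricular cells, so each was below ventricular cells in 3 of 4 libraries (log2 fold change -0.99, SE 0.17, and -0.90, SE 0.17). Epithelial cells had 16.4, 12.8 and 36.0 CPM in Wt1, Wt2 and Ho2, and the value of Ho2 exceeded its ventricular level. Without Ho2, Gja1 no longer differed by the test between epithelial and atrial cells (log2 fold change 0.65, adjusted p = 0.134) or sinus venosus cells (0.89, adjusted p = 0.0672), and without Wt2 it no longer differed between epithelial and ventricular cells (-0.45, adjusted p = 0.0618), nor did it without TMM scaling of the libraries (-0.42, adjusted p = 0.108). In all, 11 of the 15 pairs of gates were called for Gja1, beside 58.7% of all tests over genes and pairs.

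Gja5, the gene of Cx40, was highest in atrial cells among the 6 gates and was nearly confined to muscle and endothelium in these libraries. Atrial levels were 43.7, 37.9, 35.0 and 34.2 CPM, with a mean of 37.7 CPM ± 4.30 (SD, n = 4). Ventricular levels were 9.76, 23.6, 19.4 and 12.7 CPM, all below the lowest atrial library. Gja5 was 2.07 times higher in atrial cells (log2 fold change 1.05, SE 0.26, adjusted p = 0.00373) in 4 of 4 libraries, the opposite direction to Gja1. Sinus venosus cells, by contrast, had 9.45, 8.28, 7.68 and 5.52 CPM and lay 5.55 times below atrial cells, without overlap (log2 fold change -2.47, SE 0.34, adjusted p = 7.57e-06). In endocardial cells the level varied between libraries, with 14.0, 8.13, 3.26 and 12.7 CPM, and Ho1 was the lowest. That range overlapped sinus venosus cells (log2 fold change 0.23, SE 0.38, adjusted p = 0.593). Mesenchymal cells had 0.917, 0.630, 1.08 and 0.514 CPM, and epithelial cells had 2 UMIs in all. Of 4086 Gja5 UMIs in the cells used, 32.1% lay in ventricular cells, 32.1% in atrial cells and 19.1% in endocardial cells. Gja5 was called in 13 of the 15 pairs, the exceptions being endocardial against sinus venosus cells and epithelial against mesenchymal cells. Over all genes and pairs, 58.7% of tests were called.

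Gjc1, the gene of Cx45, differed least between gates. Ventricular cells had 75.8, 70.6, 64.8 and 67.4 CPM, atrial cells 61.8, 59.4, 51.7 and 48.9 CPM, and sinus venosus cells 63.7, 65.4, 70.2 and 68.6 CPM. Endocardial cells had 69.0, 66.7, 60.7 and 56.5 CPM, and mesenchymal cells 90.4, 88.2, 81.5 and 77.2 CPM. The epithelial gate was highest in CPM, with 95.1, 115 and 85.8 CPM in Wt1, Wt2 and Ho2. Means thus ran from 55.4 CPM in atrial cells to 98.6 CPM in epithelial cells, and no gate lacked the gene. In macrophages, marked by Tyrobp, a cell type with little gap junction coupling, Gjc1 had 5, 0, 1 and 0 UMIs in 21, 29, 31 and 4 cells. Between atrial and ventricular cells Gjc1 was 1.31 times lower (log2 fold change -0.39, SE 0.06, adjusted p = 2.11e-05), and in each library the atrial level was the lower of the pair. In mesenchymal cells it was 1.27 times higher than in endocardial cells (log2 fold change 0.35, SE 0.05, adjusted p = 1.55e-05), without overlap. The gene was called in 9 of the 15 pairs, close to the 58.7% of all tests over genes and pairs that were called. Sinus venosus against atrial cells was not called (log2 fold change 0.14, SE 0.06, adjusted p = 0.0811), although every sinus venosus library was higher. That pair was called without Wt1 (adjusted p = 0.0413), with the sinus venosus gate drawn by Shox2 alone (0.00192) and without TMM scaling (0.00200). The order of neighbouring gates was not fixed by the test for epithelial and mesenchymal cells (adjusted p = 0.577), mesenchymal and ventricular cells (0.806), sinus venosus and endocardial cells (0.0880) or endocardial and atrial cells (0.664). The pair of sinus venosus and endocardial cells was called under some alternatives, with an adjusted p of 0.0369 without Wt1, 0.0470 without Wt2, 0.0299 in DESeq2, 0.0344 and 0.0437 with lower and higher gate limits and 0.00151 with the sinus venosus gate drawn by Shox2 alone. The fitted values are scaled by TMM, whose factors were lower in ventricular cells (0.848 to 0.906) than in mesenchymal cells (1.06 to 1.09), and this moved the median gene between these gates by -0.29 on the log2 scale (between -0.06 and -0.42 for the other gates against ventricular cells). Without this scaling Gjc1 was higher in mesenchymal than in ventricular cells (log2 fold change 0.28, adjusted p = 0.000319), 13 pairs were called, and sinus venosus no longer differed from ventricular cells by the test (-0.04, adjusted p = 0.689). Epithelial against ventricular cells gave 0.03 (adjusted p = 0.702) with the scaling and 0.46 (adjusted p = 1.2e-05) without it. Without Wt2, Gjc1 no longer differed from sinus venosus cells in mesenchymal (0.15, adjusted p = 0.0677) or epithelial cells (0.20, adjusted p = 0.0581).

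Gja4, the gene of Cx37, was a gene of the endocardial gate. Its level there was 246, 339, 225 and 287 CPM, with a mean of 274 CPM ± 50.4 (SD, n = 4). Ventricular cells had 1.05, 1.14, 2.37 and 0.716 CPM, and atrial and sinus venosus cells stayed at or below 2.44 CPM. No library of a muscle gate came near an endocardial one, and the difference from ventricular cells was 154-fold (log2 fold change 7.27, SE 0.20, adjusted p = 6.97e-19). The ventricular counts behind it were 8, 23, 67 and 12 UMIs, most of them in Ho1, and the log2 fold change was 8.03 without Ho1, 7.91 with higher gate limits and 6.57 with doublets kept. Many genes separate these gates, since 74.3% of all genes tested were called. Of 28549 Gja4 UMIs, 89.4% lay in endocardial cells. The mesenchymal gate was next, with 29.4, 34.5, 23.0 and 36.9 CPM, 9.33 times below endocardial cells (log2 fold change -3.22, SE 0.14, adjusted p = 1.67e-14). That distance depended on how the gates were drawn, with -4.54 at the lower and -2.33 at the higher gate limits, and -6.81 with mesenchymal cells that held no endothelial UMI, as described further on. Gja4 was called in 9 of the 15 pairs, beside 58.7% of all tests over genes and pairs. The 6 pairs that were not called were those among ventricular, atrial, sinus venosus and epithelial cells.

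Gjb2, the gene of Cx26, was near the detection limit. There were 4, 1, 1 and 3 UMIs in the whole of Wt1, Wt2, Ho1 and Ho2, 9 in all. Of these, 4 lay in mesenchymal cells, 1 in an epithelial cell and 4 in cells of no gate, and no ventricular, atrial, sinus venosus or endocardial cell held any. Gjb2 did not pass the filter on low counts in any gate, so 4 of the 5 connexins were tested. Of 18 other connexins and pannexins, a related channel family, most were low too. Panx1 was present in every gate. Panx2 was 1.14 higher on the log2 scale in atrial than in ventricular cells (SE 0.21, adjusted p = 0.000232). It was the only 1 of the 4 tested in that comparison to be called, beside 27.2% of all genes. Counts differed between pairs of gates. In sinus venosus against ventricular cells 1 of 4 was called, beside 47.4% of all genes. In epithelial against endocardial cells 4 of 4 were called, beside 61% of all genes.

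**Figure D1:**
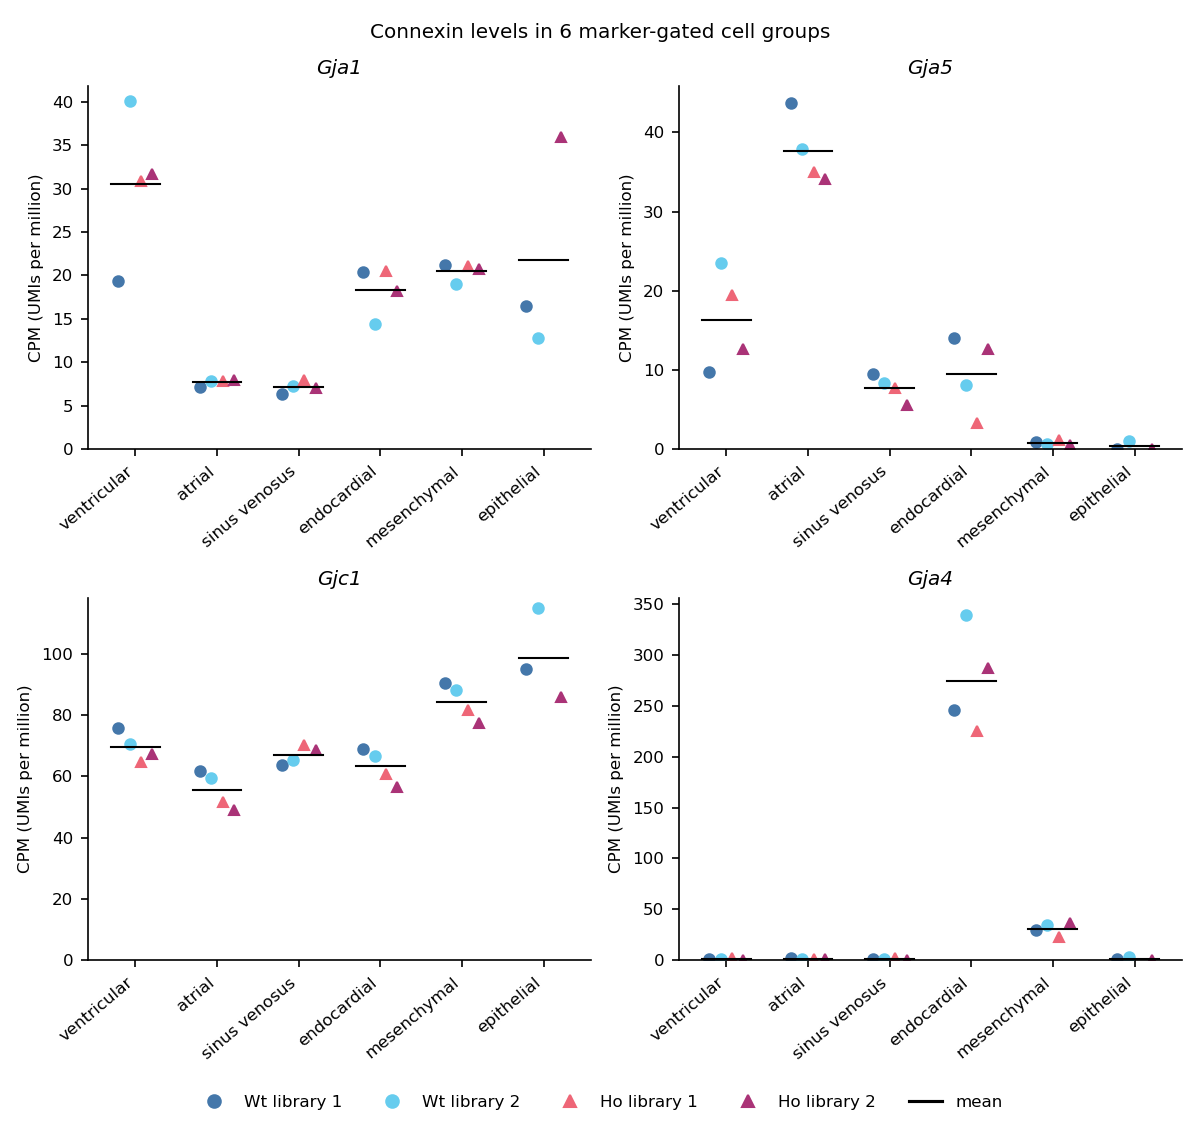
Levels of Gja1, Gja5, Gjc1 and Gja4 in CPM (vertical axes, linear from 0) in the 6 gates (horizontal axes), with 1 point per library and the mean as a line. The mean of Gja1 is highest in ventricular cells (30.5 CPM), that of Gja5 in atrial cells (37.7 CPM) and that of Gja4 in endocardial cells (274 CPM), and Gjc1 is present in every gate (55.4 to 98.6 CPM). Ho1 has no point in the epithelial gate.

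Shares of cells with at least 1 UMI were compared at equal depth. After each cell was thinned to 5000 UMIs, Gja4 was seen in 49.4%, 58.5%, 48.8% and 51.8% of endocardial cells of Wt1, Wt2, Ho1 and Ho2, and in 0.949% or fewer of ventricular cells. In Wt2 the exact (Clopper-Pearson) 95% interval was 56.0% to 60.9%, which covers counting error only. No thinned macrophage held Gja4, although only 19, 29, 30 and 4 macrophages were deep enough, with median unthinned depths of 20093, 27838, 26813 and 29160 UMIs against 13851, 16311.5, 16696.5 and 17005.5 UMIs in endocardial cells. Gja5 was seen in 16.5%, 16.7%, 18.1% and 19.6% of atrial cells, and in 4.39%, 10.1%, 8.61% and 5.04% of ventricular cells. Atrial shares thus lay above all ventricular ones. Of the macrophages, 1 of 29 in Wt2 held Gja5 (3.45%) and none in the other libraries. For a count of 0 a limit of 3 cells was set, a rough bound rather than an exact interval. It came to 15.8%, 10% and 75% in Wt1, Ho1 and Ho2. The ventricular shares, and in Ho2 also the atrial Gja5 and endocardial Gja4 shares, are thus not separated from this background. In Wt1 the atrial Gja5 share was just above the limit. For Gja5 in Wt2, where 1 of 29 macrophages held it, no limit was set. The atrial share of Wt2 is therefore not shown to be separated from background either. For Gja1 the ventricular shares were 7.56%, 16.3%, 12.4% and 12.7%. In Wt1 the endocardial (9.68%) and mesenchymal shares (9.76%) were higher than the ventricular one, and in Ho2 the epithelial share (15.9%) was. A UMI of Gja1 was seen in 1 of 19 macrophages of Wt1 and 1 of 4 of Ho2, too few to set a background. Unthinned means were 69.2% for Gja4 in endocardial, 41.2% for Gja5 in atrial and 26.1% for Gja1 in ventricular cells. Gja1 and Gja5 were seen together in 6 of 410 and 26 of 892 thinned ventricular cells of the Wt libraries and in 33 of 1370 and 16 of 754 of the Ho libraries. These shares of 1.46%, 2.91%, 2.41% and 2.12% exceeded the product of the separate shares (0.332%, 1.64%, 1.07% and 0.642%) in 4 of 4 libraries. Gja5 and Gjc1 together were below their product in 4 of 4 libraries, for instance 1.57% against 2.85% in Wt2. In atrial cells the same pair was above its product in 4 of 4 libraries, with 5.62% against 4.36%, 5.56% against 4.86%, 5.17% against 4.03% and 4.96% against 4.47%. These atrial shares rest on 14, 24, 26 and 18 cells. Gja1 with Gjc1 in ventricular cells and Gja1 with Gja5 in atrial cells differed in direction between libraries. No departure from a product was tested against counting error.

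The ventricular gate holds outer compact muscle and inner trabecular muscle, from which the fast-conducting Purkinje network later forms. Ventricular cells with 2 or more UMIs of Bmp10, a growth factor of the trabeculae, and none of Hey2 were compared with cells with 2 or more of Hey2, a transcription factor of compact muscle, and none of Bmp10. Wt1 had 12 cells of the Bmp10 class, 1.78% of its ventricular cells, and was left out of its sums. The other libraries had 83, 133 and 71 cells, 6.72%, 8.22% and 8.06% of their ventricular cells. Gja1 in the Bmp10 class was 75.1, 63.8 and 65.6 CPM in Wt2, Ho1 and Ho2, against 27.5, 32.5, 21.9 and 33.8 CPM in the Hey2 class of Wt1, Wt2, Ho1 and Ho2. All values of the Bmp10 class lay above all of the Hey2 class, and the fold change was 2.44 (log2 1.29, SE 0.13, adjusted p = 5.99e-11), beside 29.1% of all genes called. Gja5 was 38.8, 52.1 and 45.9 CPM in the Bmp10 class and 1.45, 21.3, 10.2 and 9.65 CPM in the Hey2 class, again without overlap. It was 3.58 times higher (log2 1.84, SE 0.19, adjusted p = 8.81e-11), and the lowest Hey2-class value, that of Wt1, was a single UMI. Gjc1 moved the other way, with 50.4, 40.3 and 48.3 CPM against 72.3, 70.0, 67.0 and 60.5 CPM (log2 -0.47, SE 0.12, adjusted p = 0.00163). The groups did not overlap for Gjc1, but the call was lost without Ho1 (log2 -0.34, adjusted p = 0.0916) and in DESeq2 (-0.46, adjusted p = 0.193). Median depth was alike in both classes, 22671 to 24284 UMIs per cell in the Bmp10 class against 21515 to 24916 in the Hey2 class. In Wt1, the few Bmp10 cells, the low depth and the lowest Gja1 and Gja5 of the ventricular gate occurred together, and their part in these levels was not tested.

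Other genes of the conduction lists were also called between these classes, where 29.1% of all genes were called. Of 10 regulators tested, 3 rose in the Bmp10 class, among them Irx3 (log2 1.32, SE 0.17), a factor known to raise Gja5 in the ventricular conduction system, and Tbx5 (0.79, SE 0.15), and 3 fell, among them Id2 (-1.78, SE 0.10) and Tbx3 (-1.88, SE 0.41), a repressor of Gja1 and Gja5. The median of the regulators was -0.16 on the log2 scale, against 0.00 for all genes. Of 8 channels tested, 4 rose, led by the pacemaker channel Hcn4 (0.93, SE 0.19), and 1 fell. Among 16 tested junction partners, proteins of the intercalated disc that lie beside gap junctions, 6 rose, with the desmosomal genes Dsc2 (1.20, SE 0.19) and Dsp (0.65, SE 0.08) among them, and 2 fell.

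The atrioventricular canal delays the impulse between atria and ventricles. Muscle cells with 2 or more UMIs of Bmp2, a growth factor of the canal, and fewer than 2 of Shox2 numbered 73, 150, 299 and 198, and were compared with the ventricular and atrial gates without them. Their label rests on 1 marker, but the canal factors Tbx2 and Tbx3 were also higher in them than in ventricular cells (log2 2.20, SE 0.11, and 2.58, SE 0.12). Gja1 was 3.60, 2.10, 5.30 and 3.87 CPM in these cells, below every ventricular and every atrial library. It was 9.39 times lower than in ventricular cells (log2 -3.23, SE 0.17, adjusted p = 5.86e-10, with 43.7% of all genes called) and 2.25 times lower than in atrial cells (log2 -1.17, SE 0.23, adjusted p = 0.000499, with 40.5% called). The counts behind these values were low, 4, 6, 28 and 15 UMIs, and lay within the 14.8, 0 and 4.75 CPM of macrophages of Wt1, Wt2 and Ho1 (6, 0 and 4 UMIs). Gja5 was 14.4, 6.29, 7.19 and 4.65 CPM and lay 5.94 times below atrial cells without overlap (log2 -2.57, SE 0.15, adjusted p = 1.42e-09). Against ventricular cells it was 2.93 times lower (log2 -1.55, SE 0.22, adjusted p = 2.51e-05) in 3 of 4 libraries, and Wt1 had the higher value in canal cells. Gjc1, by contrast, reached 103, 111, 92.7 and 95.3 CPM. This was above every ventricular library (log2 0.39, SE 0.06, adjusted p = 6.38e-05) and every atrial library (0.78, SE 0.07, adjusted p = 1.28e-07).

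The lists of regulators, channels and junction partners were counted in the canal cells against both chambers, beside 43.7% of all genes called against ventricular and 40.5% against atrial cells. Against ventricular cells 8 of 12 regulators rose and 2 fell, and against atrial cells 7 of 11 rose and none fell, with medians of 0.57 and 0.43 on the log2 scale against 0.01 for all genes in both comparisons. Tbx20 was higher than in both chambers (log2 1.23, SE 0.05, and 0.81, SE 0.06), as were Tbx2 and Tbx3 (2.96, SE 0.14, and 3.08, SE 0.17, against atrial cells). Irx3 went opposite ways, with -1.53 (SE 0.14) against ventricular and 1.54 (SE 0.25) against atrial cells. Tbx5 rose only against ventricular cells by the test (1.23, SE 0.10), and against atrial cells it was 0.01 (SE 0.10, adjusted p = 0.967). Of 8 channels 5 rose and 2 fell in each comparison, with Cacna1d higher in both (0.98, SE 0.09, and 0.82, SE 0.11), and Kcnj3, a gene of atrial muscle, higher than in ventricular cells (1.24, SE 0.18) and lower than in atrial cells (-0.42, SE 0.14). Of 17 junction partners 9 rose and 2 fell against ventricular cells, and 10 rose and 3 fell against atrial cells. Tjp1, whose protein binds Cx43, rose in both (1.08, SE 0.08, and 0.93, SE 0.09), whereas Cav1 was 4.60 (SE 0.18) against ventricular and -0.71 (SE 0.08) against atrial cells. Gja3, which is otherwise known from the lens, was 1.85 higher on the log2 scale than in ventricular cells (SE 0.38, adjusted p = 0.000949).

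**Figure D2:**
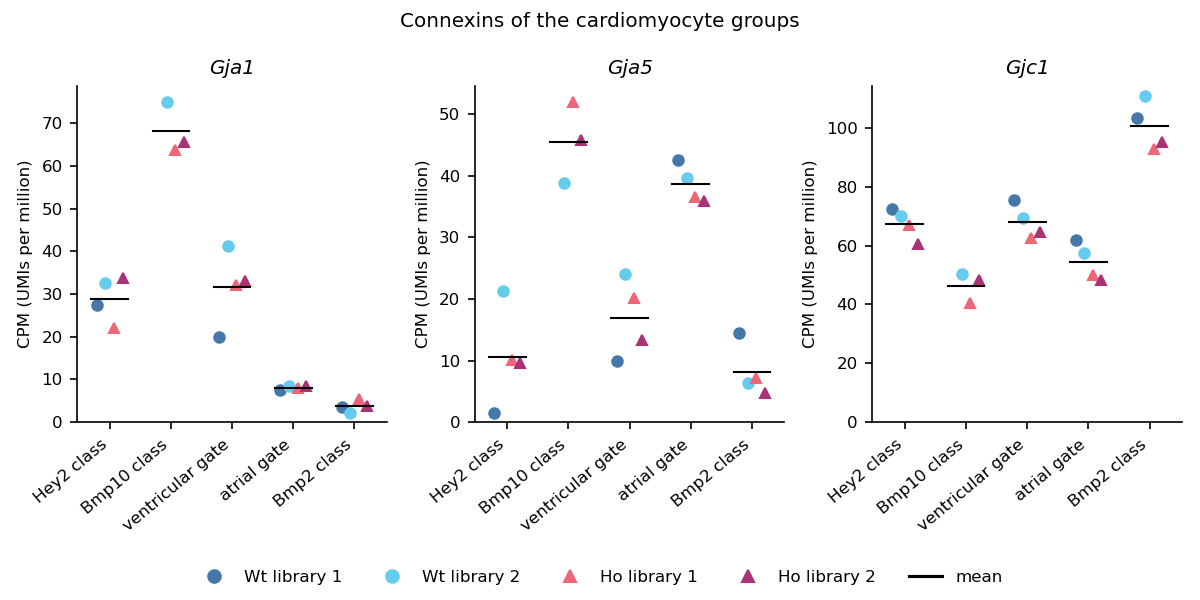
Gja1, Gja5 and Gjc1 in CPM (vertical axes, linear from 0) in ventricular cells of the Hey2 and Bmp10 classes, in the ventricular and atrial gates without Bmp2-positive cells, and in the Bmp2 class of canal cells, with 1 point per library and the mean as a line. Gja1 and Gja5 are higher in the Bmp10 class (63.8 to 75.1 and 38.8 to 52.1 CPM), and the Bmp2 class has the least Gja1 (2.10 to 5.30 CPM) and the most Gjc1 (92.7 to 111 CPM). Wt1 has no point in the Bmp10 class.

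Endothelial cells of the Cdh5 gate were divided by Npr3, a natriuretic peptide receptor of the endocardium. Cells with 2 or more Npr3 UMIs had 297, 364, 272 and 308 CPM of Gja4, against 148, 289, 103 and 229 CPM in cells without any. The positive cells were higher in 4 of 4 libraries, although the ranges overlapped, because Wt2 was high in both classes (log2 0.81, SE 0.12, adjusted p = 0.000115, with 39.1% of all genes called). Gja1 was lower in the Npr3-positive cells, with 16.2, 12.5, 17.1 and 16.1 CPM against 28.6, 19.0, 30.1 and 23.1 CPM, without overlap (log2 -0.65, SE 0.09, adjusted p = 4.04e-05). Gjc1 was likewise lower, at 62.5, 59.5, 54.7 and 48.0 CPM against 81.0, 88.2, 78.8 and 77.2 CPM (log2 -0.49, SE 0.05, adjusted p = 4.92e-06). Gja5 was 14.8, 5.51, 3.08 and 8.89 CPM in Npr3-positive cells against 11.6, 14.0, 3.34 and 21.6 CPM, lower in 3 of 4 libraries with overlapping ranges (log2 -0.66, SE 0.23, adjusted p = 0.0351). That call was lost without Wt2 (-0.40, adjusted p = 0.273), without Ho2 (-0.41, adjusted p = 0.287) and in DESeq2 (-0.60, adjusted p = 0.106). Of 9 regulators 3 rose with Npr3, led by Irx3 (1.28, SE 0.24), and 3 fell, namely Tbx20 (-1.54, SE 0.07), Klf2 (-0.92, SE 0.05) and Gata4 (-0.77, SE 0.06), and of 15 junction partners 4 rose and 6 fell. Npr3-positive cells were also deeper, with medians of 15676 to 20167 UMIs against 11988 to 13952.5, and the part of depth was not tested.

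Dll4, a Notch ligand of arterial endothelium, marked 58, 101, 87 and 75 cells of the same gate. In these cells Gja5 was 33.0, 24.7, 5.36 and 33.2 CPM, against 9.23, 5.42, 3.11 and 8.24 CPM in cells without Dll4 UMIs. Each library was higher in its Dll4-positive cells, and Ho1 was far below the other libraries, with 11 UMIs. The fold change was 3.72 (log2 1.89, SE 0.18, adjusted p = 1.27e-08), while 5.62% of all genes were called. Gja4 was 367, 486, 288 and 458 CPM against 212, 304, 209 and 234 CPM, higher in 4 of 4 libraries with overlapping ranges (log2 0.76, SE 0.05, adjusted p = 3.55e-11). Gjc1 was lower, with 59.1, 55.1, 45.3 and 47.7 CPM against 70.0, 68.1, 63.0 and 59.7 CPM (log2 -0.30, SE 0.08, adjusted p = 0.0271). This last call was lost without Wt2 (adjusted p = 0.0918), without Ho1 (0.149), without Ho2 (0.0734) and in DESeq2 (0.219). Gja1 did not pass the test (log2 -0.09, SE 0.16, adjusted p = 0.857), and its direction differed between libraries. Of 9 regulators tested 4 fell, namely Tbx20 (-0.95, SE 0.09), Gata4 (-0.42, SE 0.08), Klf2 (-0.32, SE 0.05) and Id2 (-0.19, SE 0.06), and 1 rose, Dll4 itself, which defined the class. Of 15 junction partners 3 rose and 1 fell. Medians of 15899 to 23650 UMIs per Dll4-positive cell stood against 13386 to 16306 in cells without Dll4.

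Gja4 in the mesenchymal gate followed endothelial markers. Cells of that gate with at least 1 UMI of Cdh5, Pecam1 or Emcn made up 50.3%, 49.8%, 52.8% and 49.8% of it. They held 57.4, 70.9, 41.0 and 78.3 CPM of Gja4, against 3.11, 1.85, 3.58 and 1.76 CPM in cells without such a UMI. Of 1915 Gja4 UMIs in the gate, 95.7% thus lay in cells with an endothelial UMI, compared with 50.0% of Gjc1 UMIs and 53.3% of Gja1 UMIs. In mesenchymal cells without endothelial UMIs, Gja4 was no longer called against ventricular cells (log2 0.49, adjusted p = 0.291), atrial cells (0.84, adjusted p = 0.141), sinus venosus cells (1.05, adjusted p = 0.0996) or epithelial cells (-1.04 for epithelial against mesenchymal, adjusted p = 0.221), so that 5 pairs were called in place of 9. What else these cells hold was not tested.

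**Figure D3:**
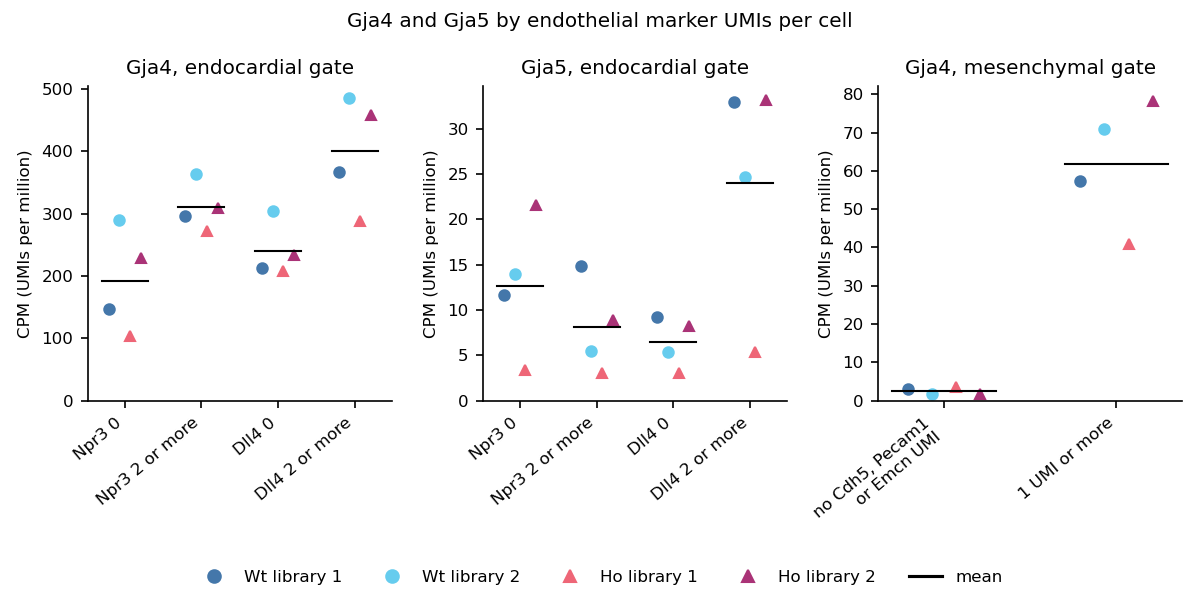
Gja4 and Gja5 in endocardial-gate cells with 0 or with 2 or more UMIs of Npr3 or Dll4, and Gja4 in mesenchymal-gate cells with and without UMIs of Cdh5, Pecam1 or Emcn, in CPM (vertical axes, linear from 0), with 1 point per library and the mean as a line. Gja5 is higher with Dll4 in each library (Ho1 lowest at 5.36 CPM), and Gja4 of the mesenchymal gate is between 1.76 and 3.58 CPM in cells without endothelial UMIs.

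The wider lists gave the setting of these connexins in the chambers. Between atrial and ventricular cells, where 27.2% of all genes were called, 5 of 18 junction partners rose and 6 fell in the atria, with Cav1 (log2 4.71, SE 0.20) and Dsc2 (1.38, SE 0.13) among the former, and the median was 0.02 against -0.03 for all genes. Of 13 regulators 2 rose, Tbx5 (1.23, SE 0.11), an activator of Gja5, and Tbx20 (0.38, SE 0.12), and 4 fell, with Irx3 at -3.08 (SE 0.38) and Hopx at -0.98 (SE 0.10). Of 10 channels 3 rose, led by Kcnj3 (1.63, SE 0.20), which encodes an acetylcholine-gated potassium channel of atrial muscle, and 1 fell. In endocardial against ventricular cells, where 74.3% of all genes were called, 7 junction partners rose and 11 fell, and of the 13 regulators 4 rose, namely Dll4 (5.97), Notch1 (5.27), Klf2 (4.05) and Gata4 (0.57), while 7 fell. Of the 10 channels, 9 fell there and Kcnj2 rose (3.34, SE 0.21).

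Genes whose levels ran most like each connexin were taken over the 23 sums of gates and libraries, as Pearson correlations of log2(CPM + 1) among 7710 genes. For Gja4 these were Emcn (0.992), Klhl4 (0.992) and Plxnd1 (0.991), of which Emcn is an endothelial sialomucin. For Gja5 they were Fam78a (0.928), Svil (0.901) and Eif4ebp1 (0.897), for Gja1 Crnde (0.880), Mnd1 (0.855) and Hddc2 (0.847), and for Gjc1 Col11a1 (0.922), Efna2 (0.898) and Fam168b (0.896). Among the connexins themselves, Gja5 and Gjc1 ran most strongly apart (-0.813). The sums share libraries and cell types, so these values are descriptions.

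Finally, Ho was compared with Wt in each gate, which addresses whether the Cyp51 allele changed connexin mRNA at E10.5. By edgeR's quasi-likelihood test no connexin was called in any gate, with 4 tested in ventricular, atrial, endocardial and mesenchymal cells and 3 in sinus venosus and epithelial cells, nor was any at an unadjusted p under 0.05 except Gja1 in epithelial cells. Few genes were called at all, 0.131% in ventricular, 0.101% in atrial, 0.00866% in sinus venosus and 0.961% in epithelial cells, and 0% in both endocardial and mesenchymal cells, where 730 and 606 genes had an unadjusted p under 0.05 and DESeq2 called 24 and 11. With 2 libraries a group, an exact permutation test could not go below p = 0.333, so a missed call does not show that levels were equal.

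For Gjc1 the libraries of Ho and Wt did not overlap in the gates. Every Ho value lay under every Wt value in ventricular, atrial, endocardial and mesenchymal cells, and above them in sinus venosus cells. The log2 fold change was -0.18 in ventricular (SE 0.09, adjusted p = 0.625), -0.24 in atrial (SE 0.12, adjusted p = 1.00), -0.17 in endocardial (SE 0.08, adjusted p = 0.879) and -0.16 in mesenchymal cells (SE 0.08, adjusted p = 0.989). In sinus venosus cells it was 0.10 (SE 0.11, adjusted p = 0.968), and it became -0.10 when the gate was drawn by Shox2 alone. None of these differences passed the test. The share of all genes whose Ho and Wt libraries separate in this way was not counted. All gates come from the same 4 libraries, so they are not independent repeats. The difference of the Ho effect between sinus venosus and atrial cells was 0.34 in edgeR (SE 0.12, adjusted p = 0.877).

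Gja1 in ventricular cells was 29.8 CPM ± 14.7 (SD, n = 2) in Wt and 31.3 CPM ± 0.514 (SD, n = 2) in Ho. The difference lay within the spread of the Wt libraries (log2 -0.02, SE 0.20, adjusted p = 0.982). In epithelial cells Gja1 was 16.4 and 12.8 CPM in Wt1 and Wt2. It was 36.0 CPM in Ho2, the only Ho library with enough such cells to be summed. This log2 change of 1.39 (SE 0.35) missed the threshold after adjustment and has no second Ho library behind it. It passed with RLE size factors (1.40), with every gene tested (1.38) and with cells of at least 2000 UMIs (1.41). Each of these fits also had Ho2 as its only Ho library. For Gja5 the atrial fold change was -0.20 on the log2 scale (SE 0.13), with every Ho value under every Wt value. In sinus venosus cells, where the same held, it was -0.45 (SE 0.25, adjusted p = 0.948). For these separations the share over all genes was not counted either. The endocardial fold change was -0.49 (SE 0.53, adjusted p = 0.925) with overlapping groups. The latter rested on Ho1, at 3.26 CPM. Without Ho2 the endocardial change was -1.65 (adjusted p = 1.76e-08), and without Ho1 it was 0.25 (adjusted p = 0.661). These refits leave 1 Ho library, which is assumed to vary like the Wt libraries, so their p-values do not rest on replicated Ho values. The endocardial gate of Ho1 also held 630 CPM of the 6 atrial markers against 189, 247 and 216 CPM in Wt1, Wt2 and Ho2, and 661 CPM of haemoglobin genes against 93.5, 416 and 124 CPM, and the part of these cells in its low Gja5 was not tested. Gja4 in endocardial cells had a log2 fold change of -0.16 (SE 0.15, adjusted p = 0.914), with the groups overlapping. In mesenchymal cells Gja4 changed by -0.10 (SE 0.20, adjusted p = 0.989), and without Ho2, with the same limit, by -0.45 (adjusted p = 0.0440). Of the regulators, Tbx3 was called in ventricular cells, with 7.52 and 5.83 CPM in Wt and 12.4 and 13.9 CPM in Ho (log2 1.00, SE 0.16, adjusted p = 0.0277). Canal-marked cells, in which Tbx3 was high, made up 1.78% and 2.67% of the ventricular gate in Wt and 5.81% and 6.24% in Ho. Without them Tbx3 was 7.06 and 4.78 CPM in Wt and 9.17 and 9.10 CPM in Ho and was no longer called (log2 0.69, SE 0.19, adjusted p = 0.309), nor was it without Wt2 (0.75, adjusted p = 0.204). Gjc1 in ventricular cells without canal-marked cells was -0.20 (SE 0.10, adjusted p = 0.664) and no connexin was called there. In epithelial cells Irx3 was called (2.31), again with Ho2 as the only Ho library summed, so that the Wt libraries alone gave the spread. No junction partner, channel or other connexin or pannexin was called in any gate.

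**Figure D4:**
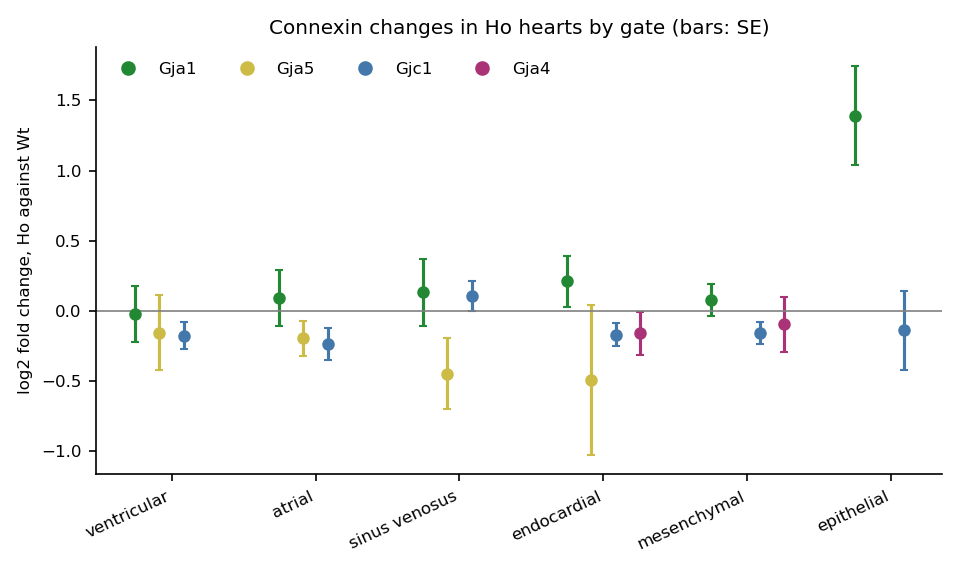
Log2 fold change of Ho against Wt (vertical axis) with its SE (bars) for each connexin with a mean of at least 5 CPM in a gate, by gate (horizontal axis). Gjc1 is slightly below 0 in every gate except sinus venosus (0.10), Gja1 in epithelial cells stands highest (1.39), and none is called.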

How the data were processed

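Single-cell 3′ libraries of E10.5 mouse hearts had been aligned by the authors to mm10 (GRCm38) with Cell Ranger 6.1.1, and the deposited values are raw UMI counts per gene and cell. The authors removed doublets with DoubletFinder in their own analysis. Neither strand use nor doublet removal before deposit is stated for these counts. Here cells with 500 to 50000 UMIs, 500 to 6000 genes and at most 20% mitochondrial counts were kept, and doublets called by Scrublet (scanpy 1.11.5) were removed, 298, 218, 378 and 147 in Wt1, Wt2, Ho1 and Ho2. Counts were summed per library and gate where at least 20 cells were present. CPM are UMIs per 1000000 UMIs of the summed cells. Because reads lie at the 3′ end, genes were not ranked against each other by level. Sums were tested over all genes with the quasi-likelihood test of edgeR 4.0.16 (R 4.3.3) with TMM scaling, filterByExpr and Benjamini-Hochberg adjustment (limit 0.05), with the library as a block between cell types and none for Ho against Wt. A comparison of classes left out Wt1 only where it had under 20 cells. DESeq2 1.42.0, other scalings, filters, gate limits and leaving out each library were alternatives. The code was tested on simulated data. The connexins were named by symbol, the 3 lists (junction partners, regulators, channels) were reported by counts, with examples among their called genes chosen after their values were seen, and the 3 genes of highest correlation were named for each connexin. The members and lists were chosen with earlier results of these data known. Some genes of the lists are not reported here by name.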

Additional observations from a re-analysis of the deposited data

Results flagged for a closer look

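Gjc1 stood out in the comparison of Ho with Wt because each Ho library lay above each Wt library in sinus venosus cells and below each Wt library elsewhere. Its log2 fold change was 0.10 in sinus venosus cells, against -0.18 in ventricular, -0.24 in atrial, -0.17 in endocardial and -0.16 in mesenchymal cells. The difference between the Ho effects was tested in edgeR and passed adjustment in no pair: 0.28 for sinus venosus against ventricular cells (adjusted p = 0.669), 0.34 against atrial cells (adjusted p = 0.877), 0.27 against endocardial cells (adjusted p = 0.786) and 0.26 against mesenchymal cells (adjusted p = 1.00). The direction in sinus venosus cells turned with the gate, to -0.10 when it was drawn by Shox2 alone. How many of all genes separate between Ho and Wt libraries was not counted, and the gates share the same 4 libraries.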

How the results depend on the processing

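Of the connexin changes between cell types, 776 comparisons with an alternative kept direction and side of the threshold, 13 turned, 12 gained and 20 lost the call, and for Ho against Wt these were 214, 18, 5 and 0. No connexin was called for Ho against Wt under most alternatives, the exceptions being Gja1 in epithelial cells, which made the count 1 with RLE size factors, with every gene tested or with cells of at least 2000 UMIs, and counts of 0 to 1 in endocardial (Gja5) and mesenchymal cells (Gja4) when 1 library was left out, 1 being without Ho2, which leaves 1 Ho library. Gja4 was called in 5 pairs of gates with mesenchymal cells without endothelial UMIs. When 1 library was left out, pairs called ranged from 9 to 11 for Gja1 and from 8 to 11 for Gjc1.

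For Ho against Wt, Gja1 in ventricular cells turned to 0.033 with DESeq2, 0.010 without scaling and 0.015 with lower gate limits (5 per 10000 and 1 UMI), and Gjc1 in sinus venosus cells to -0.10 with Shox2 alone. In mesenchymal cells without endothelial UMIs Gja1 was -0.050 and Gja4 0.19, and Gja4 was 0.14 with higher ones (20 per 10000 and 4 UMIs). Without 1 library, Gja1 ranged from -0.38 to 0.64 in ventricular, -0.055 to 0.49 in endocardial and -0.024 to 0.17 in mesenchymal cells, Gja5 from -0.57 to 0.70 in ventricular and -1.65 to 0.25 in endocardial cells, and Gja4 from -0.36 to 0.071 in endocardial and -0.45 to 0.20 in mesenchymal cells.

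Between cell types, Gja1 in mesenchymal against endocardial cells was -0.052 without endothelial UMIs. Gjc1 was 0.28 without scaling and 0.0099 with the higher gate limits in mesenchymal against ventricular cells, -0.010 with every gene tested and -0.032 with the lower limits in epithelial against ventricular cells, -0.028 with the lower limits in endocardial against atrial cells, and -0.0013 with every gene tested in epithelial against mesenchymal cells. Without 1 library, Gja1 ranged from -0.016 to 0.12 in mesenchymal against endocardial, -0.43 to 0.44 in epithelial against endocardial, -0.51 to 0.32 in epithelial against mesenchymal and -0.35 to 0.023 in Dll4-positive cells, and Gjc1 from -0.0037 to 0.082 in epithelial against ventricular cells. The cause was not tested.

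The labels do not state whether the replicate numbers mark a shared litter or day, and the libraries were treated as unpaired. Deviations of like-numbered libraries correlated at 0.0017 in ventricular, 0.030 in atrial, -0.043 in sinus venosus, -0.133 in endocardial and 0.109 in mesenchymal cells. Over whole libraries the correlation was -0.472. With the replicate number as a block Gja1 in ventricular cells was 0.070 and no connexin was called, nor was any with crossed numbers, an alternative chosen after seeing the data, as were those without scaling, without endothelial UMIs, without canal-marked cells, the interaction test and the alternatives for classes within gates (Gja1 in ventricular cells 0.051 with the crossed block). Genes called by DESeq2 differed by over 1.5 times from edgeR for the Bmp10 against the Hey2 class (745 against 2647), Npr3 (2581 against 4556), Dll4 (357 against 649), canal against atrial cells (2736 against 4457), and Ho against Wt in atrial (4 against 12), sinus venosus (3 against 1) and epithelial cells (19 against 119). Where edgeR called 0 genes for Ho against Wt, DESeq2 called 24 in endocardial cells, 11 in mesenchymal cells and 21 over whole libraries. Shares of cells with a UMI moved with thinning in 35 of 36 cases, so they depend on depth.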
